A study of Mus musculus with 4 samples.

Results

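The transcriptome of control TCRαβ+CD8αα+ intestinal intraepithelial lymphocytes (IELs) was described from the 2 RNA-seq libraries labelled control, of 4 in the series. They were chosen by their genotype label alone and are named control replicate 1 and control replicate 3, the numbers their titles carry. The cells came from the small intestine of C57BL/6 mice. Controls carried the loxP-flanked Kdm6b alleles (Kdm6bfl/fl) without the CD4Cre transgene, so that Kdm6b was floxed but not deleted by Cre. The age of the mice was not given in the sources used here. Cells were sorted by flow cytometry as CD45+CD4-TCRβ+CD8α+CD8β-, and each library held RNA pooled from 3 mice of the genotype. The other libraries of the series came from mice with Kdm6b deleted in T cells by CD4Cre and were not compared here. A value per pool hides the spread between its mice. In a bulk library, more cells of a type and more RNA per cell cannot be told apart.

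IELs lie between the epithelial cells of the gut. TCRαβ+CD8αα+ IELs arise from self-reactive thymic precursors, reach the gut early in life and are kept there by interleukin-15 made by the epithelium. They carry the CD8α chain as a homodimer, hold preformed cytotoxic granules and express receptors otherwise known from natural killer (NK) cells.

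Levels are in FPKM, a fragment count corrected for transcript length and sequencing depth, which is per length and so allows different genes to be set side by side. Of 19339 genes listed, 10984 had at least 1 FPKM in both libraries, and 944 had at least 100 FPKM in both. Genes listed at 0 numbered 4531 in replicate 1 and 2773 in replicate 3. The absolute depth was not estimated here. The relative depth of replicate 3 was 0.986 of that of replicate 1, from the steps between low values. By another measure, 2336 genes were above 0 only in replicate 3 and 578 only in replicate 1.

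The proximal promoters of Gzma, Gzmb and Klra5 are shown because these genes led the granzymes and the Ly49 receptors. The windows of the markers Cd8a and Fcer1g were also searched, held none of the motifs and are not printed. Each run holds the 250 bases before the transcript start that a RefSeq promoter table of GRCm38.p6 uses, 5′ to 3′ on the strand of the gene. For Klra5 that start lies a few bases inside the annotated span of the gene, so the end of its window overlaps the gene. The windows are chr13:113100982-113101231 on the minus strand for Gzma, chr14:56262335-56262584 on the minus strand for Gzmb and chr6:129913225-129913474 on the minus strand for Klra5. Capitals mark exact matches to a RUNX motif (TGTGGT, either strand), a T-box motif (TCACAC, either strand), an ETS motif (GGAAGT, either strand) or a TATA motif (TATAAA, gene strand).
Gzma: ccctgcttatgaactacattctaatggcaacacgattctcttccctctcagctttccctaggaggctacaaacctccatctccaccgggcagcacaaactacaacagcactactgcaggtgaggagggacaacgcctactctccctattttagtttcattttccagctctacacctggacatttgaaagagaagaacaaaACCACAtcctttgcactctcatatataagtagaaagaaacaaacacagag
Gzmb: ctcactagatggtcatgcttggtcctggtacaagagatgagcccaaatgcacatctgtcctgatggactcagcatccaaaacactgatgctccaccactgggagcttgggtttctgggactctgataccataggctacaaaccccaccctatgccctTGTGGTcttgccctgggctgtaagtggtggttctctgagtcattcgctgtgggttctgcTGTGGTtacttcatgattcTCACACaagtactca
Klra5: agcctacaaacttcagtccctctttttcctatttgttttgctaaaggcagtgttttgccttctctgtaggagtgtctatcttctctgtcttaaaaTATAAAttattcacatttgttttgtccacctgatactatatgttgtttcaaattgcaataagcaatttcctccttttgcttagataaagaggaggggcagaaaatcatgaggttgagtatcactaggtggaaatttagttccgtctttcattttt
The Gzma window held the RUNX letters, and the Gzmb window held both the RUNX and the T-box letters. The Klra5 window held neither of these but held the TATA letters, with their first base at −155 from the start. Only the exact letters were searched, so variants of a motif stayed unmarked. Over the 27025 promoters of the annotation, with windows of the same length, 14.2% held the RUNX letters, 12.2% the T-box letters, 20.0% the ETS letters and 8.12% the TATA letters. Of 21 cytotoxic genes with a promoter sequence, 9 held the RUNX letters and 6 the T-box letters. Of 11 Ly49 genes, 1 held the RUNX letters and 6 the TATA letters. Of 12 other killer lectin-like receptor genes, 7 held the RUNX letters, and of 6 CD3 and adaptor genes 4 held the ETS letters. Some epithelial genes held them too. Of 8 Paneth cell genes 2 held the RUNX, 3 the T-box, 4 the ETS and 5 the TATA letters. Of 16 enterocyte genes 3 held the RUNX, 2 the T-box, 2 the ETS and 6 the TATA letters. Of 12 keratin and junction genes 1 held the RUNX, 0 the T-box, 5 the ETS and 1 the TATA letters. A match is a description of the letters and not evidence of binding.

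The marker genes of the sorted population were expressed in both libraries. Cd3e, a chain of the T cell receptor complex, had 505 and 352 FPKM in replicates 1 and 3. Cd8a, the chain of the CD8αα homodimer, had 463 and 418 FPKM. Itgae, the αE integrin that binds E-cadherin on epithelial cells, had 383 and 301 FPKM. All these levels lay far above the median of expressed genes, which was 14.1 FPKM in replicate 1 and 13.5 FPKM in replicate 3. Gzmb, a granule protease, had 3378 and 2488 FPKM. Klra5, a Ly49 receptor, had 339 and 273 FPKM. Fcer1g, the signalling chain shared by Fc receptors and some NK receptors, had 1785 and 1367 FPKM. Each of the 6 markers was somewhat lower in replicate 3. Cd8b1, the CD8β chain excluded by the sort, was listed at 0 in replicate 1 and had 0.90 FPKM in replicate 3. Cd4, also excluded by the sort, had 30.6 and 10.1 FPKM. The T cell receptor constant genes were not analysed here, so the α and β chains themselves could not be checked.

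Gzma, a granule tryptase, was the highest gene by mean log2 level, with 17390 FPKM in replicate 1 and 11061 FPKM in replicate 3. Tmsb4x, which sequesters actin monomers, had 11259 and 11220 FPKM. Cd7, a surface protein of T and NK cells, had 7843 and 5779 FPKM. These were followed by Actb, by Rgs1, a brake on chemokine receptor signalling, and by B2m, the light chain of MHC class I. Rgs1 had 7145 and 5055 FPKM. Ccl5, a chemokine that attracts T cells and myeloid cells, had 4238 and 2612 FPKM. Nkg7, a membrane protein of cytotoxic granules, had 2674 and 1993 FPKM. Cd3g and Fcer1g were also among the 25 highest, with housekeeping genes such as Eef1a1, Ppia, Ftl1 and Rpl13, and 1 was a predicted transcript. The 25 highest genes of each library held 17.3% of summed FPKM in replicate 1 and 16.6% in replicate 3, and the libraries had 16 of these genes in common. Defa24, a Paneth cell defensin, was among the 25 highest with 1311 FPKM in replicate 1 and 10963 FPKM in replicate 3.

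**Figure D1:**
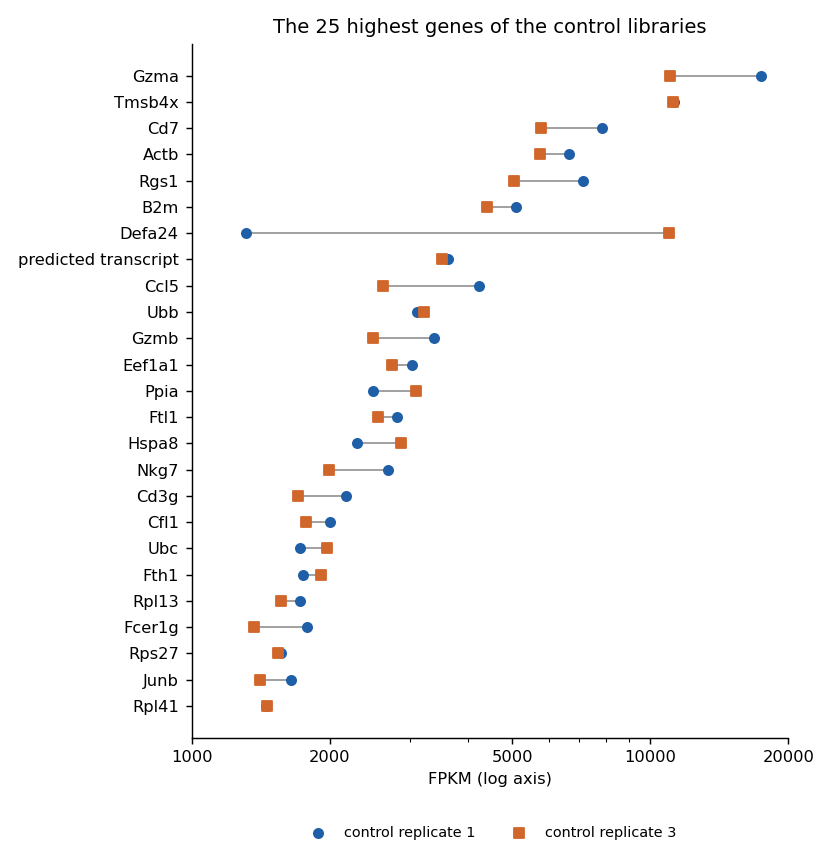
FPKM, on a log axis, of the 25 genes with the highest mean log2(FPKM + 1), with circles for control replicate 1 and squares for control replicate 3 and a line joining both values of a gene. Defa24 spans 1311 to 10963 FPKM, a wider gap than any other gene shown.

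The CD3 and adaptor genes were high but uneven. Cd3g had 2167 and 1702 FPKM and Cd3d had 368 and 307 FPKM. Cd247, the ζ chain, had 96.3 and 86.9 FPKM. Fcer1g was thus 18.5 times as high as Cd247 in replicate 1 and 15.7 times in replicate 3, on the FPKM scale. Tyrobp, the DAP12 adaptor of activating NK receptors, had 1454 and 920 FPKM. Of 16 genes of proximal receptor signalling, all were at 1 FPKM or more in both libraries and 8 were at 100 or more in both. Lck, the kinase bound to CD8, had 915 and 793 FPKM, while its relative Fyn had 42.4 and 26.3 FPKM. Zap70, which docks on phosphorylated CD3 chains, had 374 and 263 FPKM, and Syk, its counterpart in B and myeloid cells, had 3.36 and 2.69 FPKM. The 18 coreceptor and conventional T cell surface genes were uneven too, with 6 at 100 FPKM or more in both libraries. Cd52 had 579 and 505 FPKM and Ptprc had 410 and 389 FPKM, while others were low. Thy1 had 10.8 and 5.50 FPKM and Cd5, a damper of receptor signalling, had 37.0 and 19.3 FPKM. Il7r, the interleukin-7 receptor, had 6.82 and 2.98 FPKM. Cd69, a marker of tissue residency and activation, had 243 and 162 FPKM.

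NK-type receptors were dominated by a few members. Klra5 made up 78.8% of the summed FPKM of the 13 Klra genes in replicate 1 and 73.0% in replicate 3. Klra7 had 57.7 and 63.6 FPKM, and 3 of the 11 Ly49 genes listed for this work were under 1 FPKM in both libraries. Klra genes are near-identical copies, so reads could be split between them and their separate levels are uncertain. Among other receptors, Klrb1a had 115 and 102 FPKM. Cd160, an immunoglobulin-family receptor of IELs and NK cells, had 236 and 254 FPKM. Cd96 had 416 and 320 FPKM. Ncr1, the NKp46 receptor that defines NK cells, had 0.26 and 0.16 FPKM. In contrast to Ncr1, 12 of 15 other killer lectin-like receptor genes reached 1 FPKM in both libraries.

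The cytotoxic list was dominated by Gzma and Gzmb. Of 23 cytotoxic genes matched, 20 had at least 1 FPKM in both libraries and 9 had at least 100. Gzma held 83.5% and 81.5% of the summed FPKM of 7 granzyme genes in replicates 1 and 3. Gzmk had 32.2 and 9.05 FPKM. Prf1, the pore-forming perforin, had 18.8 and 7.76 FPKM, so that Gzmb was 179 times as high as Prf1 in replicate 1 and 321 times in replicate 3. Granule genes Srgn, with 1462 and 1195 FPKM, and Ctsw, with 640 and 515 FPKM, were high. Fasl, the death ligand, had 134 and 75.4 FPKM. Cytokine genes were lower, with 1 of 21 matched at 100 FPKM or more in both libraries. Ifng had 23.3 and 13.5 FPKM, and Tgfb3, of the immunoregulatory TGF-β family, had 58.7 and 45.6 FPKM. Among chemokines, Xcl1, which attracts cross-presenting dendritic cells, had 536 and 617 FPKM.

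**Figure D2:**
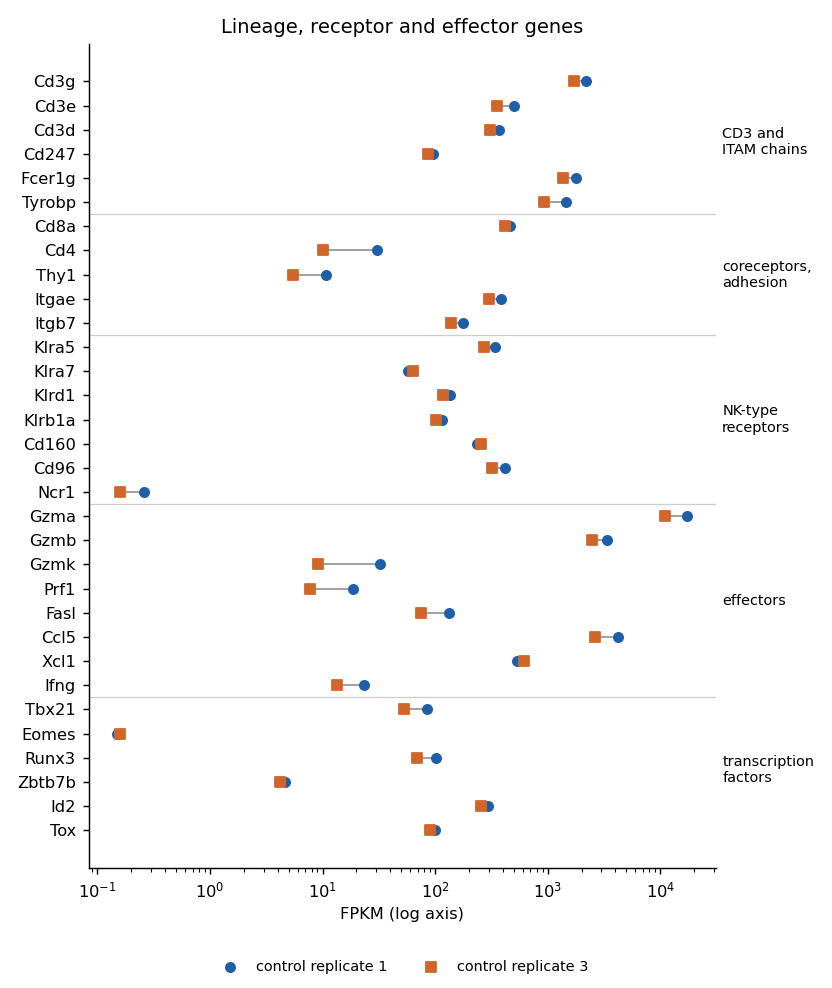
FPKM, on a log axis, of chosen members of 5 gene groups, with circles for control replicate 1 and squares for control replicate 3. Gzma, Cd3g, Fcer1g and Ccl5 exceed 1000 FPKM in both libraries, and Ncr1 and Eomes lie under 1 FPKM in both.

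Of 18 integrin and adhesion genes, 5 had at least 100 FPKM in both libraries, and of 21 genes of interleukin-15, common γ chain and TGF-β signalling 3 did. Itgae was 32.4 times as high as Itga4, the α4 chain used for entry from blood, in replicate 1 and 42.5 times in replicate 3. Itgb7, the β chain shared by both, had 179 and 140 FPKM. Cxcr6 had 211 and 153 FPKM, whereas S1pr1, the receptor for exit from tissue, had 10.4 and 5.26 FPKM. Il2rb and Il2rg, the chains through which interleukin-15 signals, had 891 and 636 FPKM and 708 and 571 FPKM. Il2ra, specific to interleukin-2, had 3.58 and 2.93 FPKM, and Il15ra, which presents interleukin-15, had 9.08 and 6.44 FPKM. Inhibitory receptors were also expressed, with Tigit at 251 and 184 FPKM and Lag3 at 149 and 74.8 FPKM. Pdcd1, which encodes PD-1, had 30.6 and 30.0 FPKM.

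Of 37 lineage and residency transcription factors matched, 35 were at 1 FPKM or more in both libraries and 5 at 100 or more. Id2, an inhibitor of E proteins, had 294 and 255 FPKM. Runx3, the factor of the CD8 lineage, had 101 and 69.1 FPKM. Tox had 101 and 89.5 FPKM. Tbx21 (T-bet) had 84.1 and 53.0 FPKM and its relative Eomes had 0.15 and 0.16 FPKM. Ikzf2, which encodes Helios, had 41.9 and 33.9 FPKM. Immediate-early genes, which are also induced by tissue dissociation, were high. Fos had 427 and 733 FPKM, Nr4a1 had 329 and 314 FPKM, and 13 of 25 genes of this list had at least 100 FPKM in both libraries. Their part in the levels of other genes was not tested.

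Glycolytic, mitochondrial and proliferation genes were expressed throughout. All 19 glycolysis and transport genes were at 1 FPKM or more in both libraries. Ldha, which makes lactate, had 1012 and 1095 FPKM, against 10.2 and 15.3 FPKM for Ldhb. Gapdh had 838 and 901 FPKM. All 20 genes of the tricarboxylic acid cycle were at 1 FPKM or more, with medians of 112 and 149 FPKM. Complex I of the respiratory chain had medians of 150 and 183 FPKM over 36 genes, and ATP synthase had medians of 253 and 353 FPKM over 17 genes. All 25 genes of DNA replication and mitosis were at 1 FPKM or more in both libraries, with medians of 67.7 and 91.0 FPKM. Mki67 had 28.1 and 33.7 FPKM. In Bcl-2 family genes, Bcl2a1b had 231 and 186 FPKM and Mcl1 had 45.7 and 32.3 FPKM, but Bcl2a1 genes are close copies and uncertain.

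Other cell types were checked by their markers. Epithelial genes were present in both libraries although the sort required CD45. The 64 genes of 5 epithelial lists held 1.14% of summed FPKM in replicate 1 and 5.50% in replicate 3. These lists take in only some of the 26 Defa genes, which alone held 0.73% and 6.21%. Epcam, an epithelial adhesion protein, had 94.5 and 229 FPKM, and Krt8, a keratin, had 275 and 987 FPKM. Lyz1, the Paneth cell lysozyme, had 494 and 3153 FPKM. Myeloid and antigen-presenting genes were mixed, with Cd74 at 1308 and 939 FPKM and Lyz2 at 365 and 253 FPKM, while S100a8 and S100a9 were listed at 0 in both. Of 11 B cell and plasma cell genes matched, 7 were under 1 FPKM in both libraries, but Cd79b, a chain of the B cell receptor complex, had 33.5 and 30.8 FPKM and Cd79a, its partner, had 3.53 and 1.75 FPKM. Of 9 mast and innate lymphoid genes, 7 were under 1 FPKM in both, but Kit had 65.2 and 67.8 FPKM. Of 12 γδ T cell genes, 4 were matched, none of them a receptor gene, and 3 of these were under 1 FPKM in both.

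The agreement of the libraries was described over 12094 genes that reached 1 FPKM in either library, as the difference of log2(FPKM + 1), replicate 3 minus replicate 1. Across these genes Pearson's r was 0.95 and Spearman's rho 0.95, and genes are not independent replicates. The median difference was −0.01, its SD was 0.62, and 91.1% of genes lay within 1 log2 unit. With 1 library on each side these differences have no replicate check and no p-value was computed. Some genes enter this comparison only through the library where they are high, and these had to differ. Gene lists are therefore compared below over the 10984 genes at 1 FPKM or more in both libraries, a choice made after the values were seen. In replicate 3, 830 genes (6.86%) were higher by more than 1 log2 unit and 242 were lower, together 1072 genes or 8.86%. Among the genes at 1 FPKM or more in both libraries, 538 (4.90%) were higher by more than 1 log2 unit. When both libraries were scaled to the Cd3 genes, Cd247 and Ptprc, 1194 of the 12094 genes were higher and 146 lower, against 830 and 242. The share of genes past 1 log2 unit was 12.7% at mean levels from 1 to 10 FPKM and 4.50% from 100 to 1000 FPKM. It was 18.6% among the 59 genes at 1000 FPKM or more, where all 11 such genes were higher in replicate 3.

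**Figure D3:**
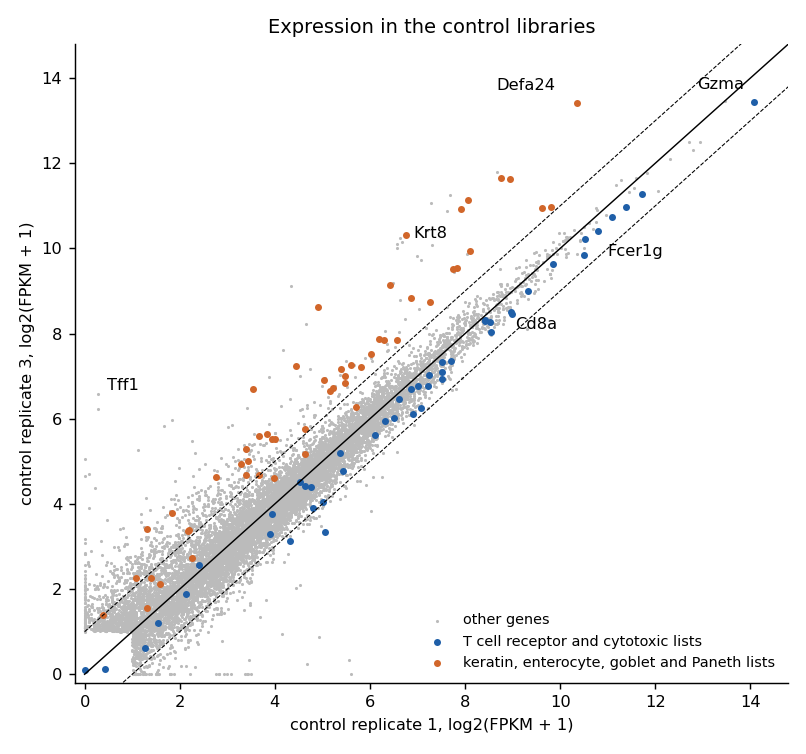
Control replicate 3 against control replicate 1 as log2(FPKM + 1), a point per gene, with the line of equality and dashed lines at a difference of 1. Genes of the keratin, enterocyte, goblet and Paneth lists (orange) lie above the line of equality, and genes of the T cell receptor and cytotoxic lists (blue) lie mostly on or below it.

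Epithelial and antimicrobial genes were higher in replicate 3. Of 56 epithelial genes at 1 FPKM or more in both libraries, 55 were higher in replicate 3 (the exception was Gast) and 45 by more than 1 log2 unit, beside 4.90% of all such genes. Paneth cell genes had a median difference of 3.01 over 11 genes, goblet cell genes 1.77 over 9, keratin and junction genes 1.49 over 15, and enterocyte genes 1.5 over 17. Enteroendocrine genes had a smaller median of 0.24 over 4, none of them a tuft cell gene. The 26 Defa genes, defensins of Paneth cells, summed to 4203 FPKM in replicate 1 and 38225 FPKM in replicate 3, a ratio of 9.09. Defa genes are close copies, so their separate levels are uncertain. The largest positive differences included genes of the stomach lining, a group read from this ranking and not from a fixed list. Tff1 had 0.21 and 94.7 FPKM, Gkn2 had 0.22 and 73.6 FPKM, and Pgc had 2.58 and 61.8 FPKM. Tff1 and Gkn2 were under 1 FPKM in replicate 1, so they entered only through replicate 3 and had to differ. Hemoglobin genes of red cells were also higher in replicate 3, with Hbb-bs at 7.62 and 56.6 FPKM. All 10 genes with the largest negative differences were under 1 FPKM in replicate 3. They entered only through replicate 1 and had to differ. Of these, 7 were predicted transcripts. The rest were Jchain, of plasma cells, with 16.7 and 0.94 FPKM, Atf6b with 24.7 and 0.18 FPKM, and H2-D1 with 9.37 FPKM and a listing at 0, the last a close copy of other class I genes.

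Several lists of T cell genes differed less and in the other direction. Of all 10984 genes compared, 5200 were higher and 5772 lower in replicate 3. Scaled to the Cd3 genes, Cd247 and Ptprc, 7858 of all these genes were higher. All 20 cytotoxic genes in the comparison were lower in replicate 3, with a median difference of −0.37, but scaled to the Cd3 genes, Cd247 and Ptprc 6 of them were higher. All 7 CD3 and adaptor genes were lower, with a median of −0.38, and 2 were higher after that scaling, which uses some of them. Of 18 inhibitory and costimulatory receptor genes, 17 were lower, with a median of −0.56, and 5 were higher after scaling. NK-type receptor lists were mixed. Of 12 other NK-type receptor genes, which include Cd96 and Cd160, 11 were lower in replicate 3, with a median of −0.34, and 5 were higher when scaled to T cell genes. Of 6 Ly49 genes 4 were higher in replicate 3, with a median of 0.08 and quartiles of −0.22 and 0.13. Klra5, which held most of the family, was lower. Of 12 other killer lectin-like receptor genes 4 were higher and 8 lower, with a median of −0.19 that was 0.08 when scaled to T cell genes. Of 11 myeloid and antigen-presenting genes 8 were also lower in replicate 3, with a median of −0.48, beside 5772 of all 10984 genes. Scaling to T cell genes moved the median of all genes in this comparison to 0.23. Genes of DNA replication and mitosis had a median of 0.50 with 25 of 25 higher, also after TPM and quantile scaling. All 25 were higher after T cell scaling too, where 7858 of all 10984 genes were. Genes of the tricarboxylic acid cycle had a median of 0.40 with 20 of 20 higher, and 1 of them was lower after TPM or quantile scaling. The epithelial genes moved with these differences, and their part in them was not tested.

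**Figure D4:**
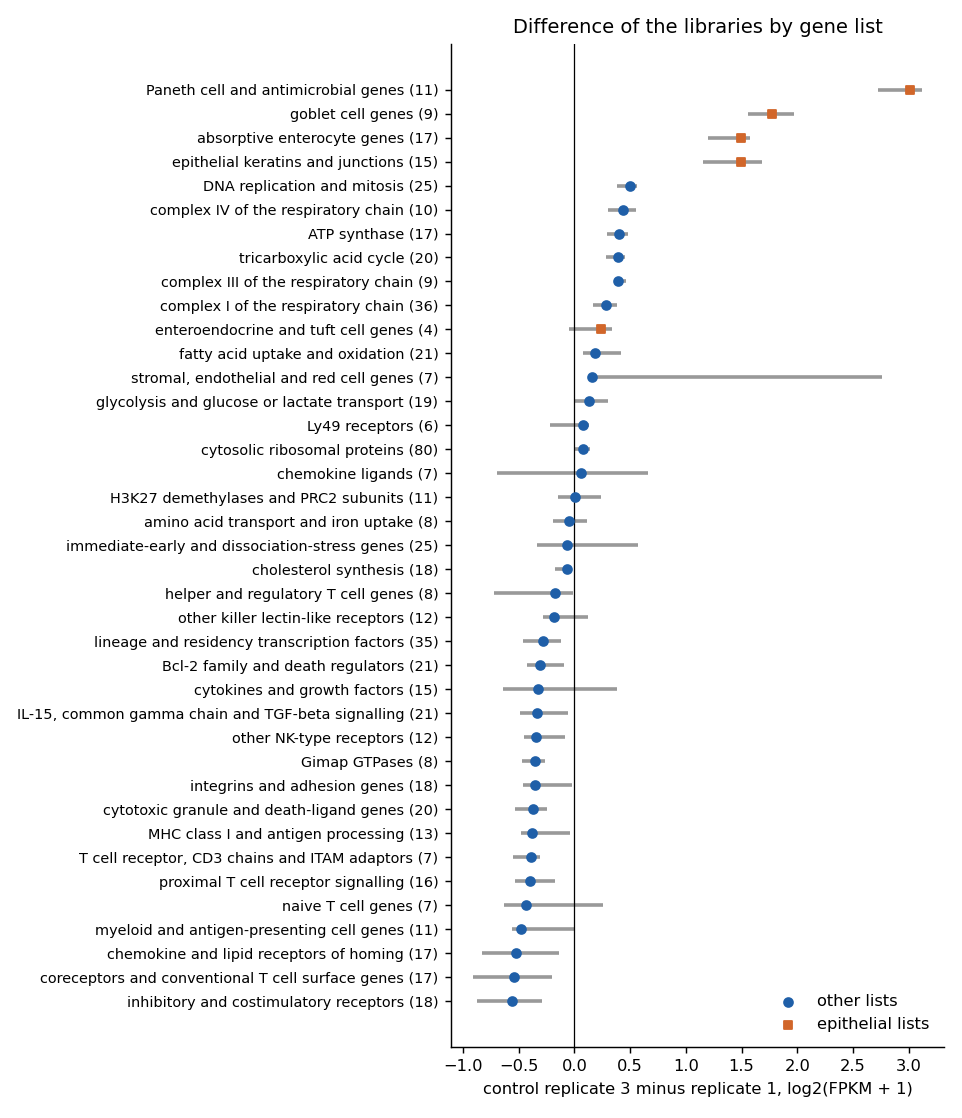
Median difference between the libraries, replicate 3 minus replicate 1 of log2(FPKM + 1), for each gene list with 4 or more genes at 1 FPKM or more in both libraries (number in parentheses). Bars span the quartiles of the genes. Paneth cell genes have the highest median, 3.01, and the cytotoxic list lies at −0.37 as deposited. Scaled to T cell genes, which is not drawn, the median of the cytotoxic list was −0.13.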

How the data were processed

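RNA of sorted control TCRαβ+CD8αα+ IELs was sequenced on a HiSeq instrument. The authors mapped reads to mm10 with HISAT (version not given in the sources used here) and Bowtie2 and quantified genes with RSEM. The submitters' processing notes name Bowtie2 2.2.5, RSEM 1.2.8 and the builds mm10 and GRCm38.p5. The deposited values are FPKM, already scaled to transcript length and library size. Here 18467 of 19339 identifiers were matched to symbols of RefSeq GRCm38.p6, and 758 were predicted transcripts. Tables were handled in Python 3.11.15 with pandas 2.3.3, numpy 2.4.6 and scipy 1.17.1.

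Levels were compared as log2(FPKM + 1), with no further scaling and no test, since the libraries form 1 group. Relative depth came from a scan for the step of which low values, multiplied by effective length, are whole multiples, in genes of 1 transcript under 2500 bases. It was 0.976 to 0.986 for fragment lengths of 100 to 200 bases. The scripts for the step and for the differing genes were checked on simulated data. Named genes were the 6 markers, the 25 highest by mean log2 level, members of 42 gene lists, and the 10 largest differences in each direction. Members and lists were chosen with earlier results of these data known. Some genes stand in more than 1 list. The Kdm6b-deficient libraries were not used.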

Additional observations from a re-analysis of the deposited data

How the results depend on the processing

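The number of genes at 1 FPKM or more in both libraries was 10984, and 14230 were above 0 in both, 8179 were at 5 FPKM or more in both and 12094 were at 1 FPKM in at least 1 library. A single library had 11370 to 11708 genes at 1 FPKM or more and shared 17 to 23 of the 25 highest genes. Ranking by mean FPKM kept 22 of the 25. Pearson's r was 0.92 with a pseudocount of 0.1, 0.89 with a pseudocount of 0.01 and 0.98 without a filter, where genes at or near 0 in both libraries were added. The genes higher in replicate 3 numbered 1281 with a pseudocount of 0.01 and 526 among genes at 5 FPKM or more in at least 1 library, against 830. The genes lower in replicate 3 numbered 504 and 543 with pseudocounts of 0.1 and 0.01, 129 at 5 FPKM or more, 444 on the TPM scale and 146 when scaled to T cell genes, against 242. The TPM scale gave 1008 higher genes. Over genes at 1 FPKM or more in both libraries, added after the values were seen, 538 genes were higher and 141 lower. The median difference of enteroendocrine genes was −0.12 at 5 FPKM or more, where Gast and Sct were left, 0.24 over the 4 at 1 FPKM in both libraries and 0.61 over the 7 at 1 FPKM in either. Median-of-ratios scaling gave a factor of 1 for each library over 14230 genes, so it left every value as it was and is no check of stability. Leaving out a library could give no value for the agreement, which needs both. No paired analysis was possible because no groups were compared. Read totals were not estimated here, and counting error was not computed.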

Other observations

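Further gene groups were expressed in both libraries. All 18 cholesterol synthesis genes were at 1 FPKM or more in both, and Fdps, which makes farnesyl pyrophosphate, had 275 and 218 FPKM in replicates 1 and 3. Slc3a2, the heavy chain of amino acid transporters, had 441 and 381 FPKM, while its partner Slc7a5 had 3.99 and 2.51 FPKM. All 11 genes of H3K27 demethylation and the Polycomb repressive complex were at 1 FPKM or more in both. The 8 Gimap genes, GTPases of lymphocyte survival, had medians of 346 and 257 FPKM. In replicate 3, 8 of 8 were lower, beside 5772 of all 10984 genes at 1 FPKM or more in both libraries. When scaled to T cell genes 3 Gimap genes were higher, beside 7858 of all these genes. Gast, which encodes the stomach hormone gastrin, had 65.4 and 35.6 FPKM and was higher in replicate 1. The stomach genes Tff1, Gkn2 and Pgc were higher in replicate 3 but were picked from the largest differences. Tff1 and Gkn2 entered only through replicate 3. Predicted transcripts held 3.41% and 3.02% of summed FPKM.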
